A study of Mus musculus with 36 samples.

Results

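The 7 genes described here are *Arntl* (the gene of BMAL1), *Clock*, *Nr1d1* (REV-ERBα), *Nr1d2* (REV-ERBβ), *Rora* (RORα), *Bhlhe40* (DEC1) and *Bhlhe41* (DEC2). They were chosen by symbol, with earlier results of these data known. Each was read by 1 probe set that the array's annotation assigns to that gene alone. They are 7 of the 19938 genes with such a probe set, and their probe sets are 7 of 35556 on the array. Livers of C57BL/6J mice on a high fat diet with 60% of calories from fat, given for 10 weeks, were compared with livers of C57BL/6J mice on normal chow. All mice were 16 weeks old at harvest, fed freely and kept in 12 h of light and 12 h of darkness. Livers were taken at Zeitgeber time (ZT, hours after lights on) 0, 4, 8, 12, 16 and 20, with 3 arrays for each diet and time and 36 arrays in all. The labels do not say whether the 3 arrays of a group came from separate animals, so p-values measure only the spread between these arrays.

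BMAL1 and CLOCK pair up and bind E-boxes in DNA, where they switch on the genes of the period and cryptochrome proteins, the REV-ERBs and the DEC proteins. The REV-ERBs repress *Arntl* and, more weakly, *Clock* through elements that the ROR proteins use to activate the same genes, which forms the stabilising loop of the clock. The DEC proteins repress E-box genes by competing for the same sites, and in liver these loops time lipid, bile acid and glucose metabolism.

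The loop's binding letters were looked for on both strands of RefSeq promoter windows (GRCm38.p6) of 300 bases, from 250 before to 50 after each gene's start. Windows were found for 6 of the 7 genes, 9 windows in all, of which *Arntl* has 2 and *Clock* 3. The 4 stretches below are shown because each holds, in capitals, letters that another of the 7 proteins is known to bind. Each is printed 5′ to 3′ along its gene.
Arntl: ggaaggcagaAAGTAGGTCAgggacggagg
Clock: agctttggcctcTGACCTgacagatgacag
Nr1d2: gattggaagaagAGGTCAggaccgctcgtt
Bhlhe41: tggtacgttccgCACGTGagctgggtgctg
The *Arntl* stretch (chr7:113207528-113207557, plus strand) matches 1 form of the REV-ERB and ROR element, which 0.606% of all 32851 promoter windows hold. The *Nr1d2* stretch (chr14:18239166-18239195, minus strand) holds AGGTCA, the core of that element, which lies inside the longer match in the *Arntl* stretch and is in 16.3% of windows. The *Bhlhe41* stretch (chr6:145865556-145865585, minus strand) holds the E-box CACGTG, found in 7.15% of windows. The *Clock* stretch (chr5:76303604-76303633, minus strand), from 1 of its windows, holds AGGTCA on the strand opposite to the gene, read here as TGACCT. None of these letters was found in the windows of *Nr1d1* and *Rora*. The D-box letters TTANGTAA, in 2.32% of all windows, matched no window of the 6 genes. A match describes these letters in these windows and is not a binding site.

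Values are log2(intensity + 16) of the deposited probe set intensities, so differences of dim genes are understated and levels of different genes are not compared. Array medians lay between 75.7 and 95.6 intensity units, and arrays of 1 group correlated at 0.985 to 0.996 over the genes. A change was called at an adjusted p under 0.05 in limma, over 13956 genes bright enough to test. Whether the arrays of the diets overlapped at a time is given as description only. No share of all genes stands beside it, and arrays that lay apart without a call are not a result. Summed hepatocyte markers had a log2 intensity of 15.7 to 15.9 on the high fat diet and 15.6 to 16.0 on chow. Summed Kupffer cell and macrophage markers had 11.4 to 12.6 on the high fat diet and 10.7 to 12.1 on chow. On average over the day 7 of these 8 markers were higher on the high fat diet, beside 11.3% of all genes. In whole liver, fewer cells of a type and less RNA per cell cannot be told apart.

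**Figure D1:**
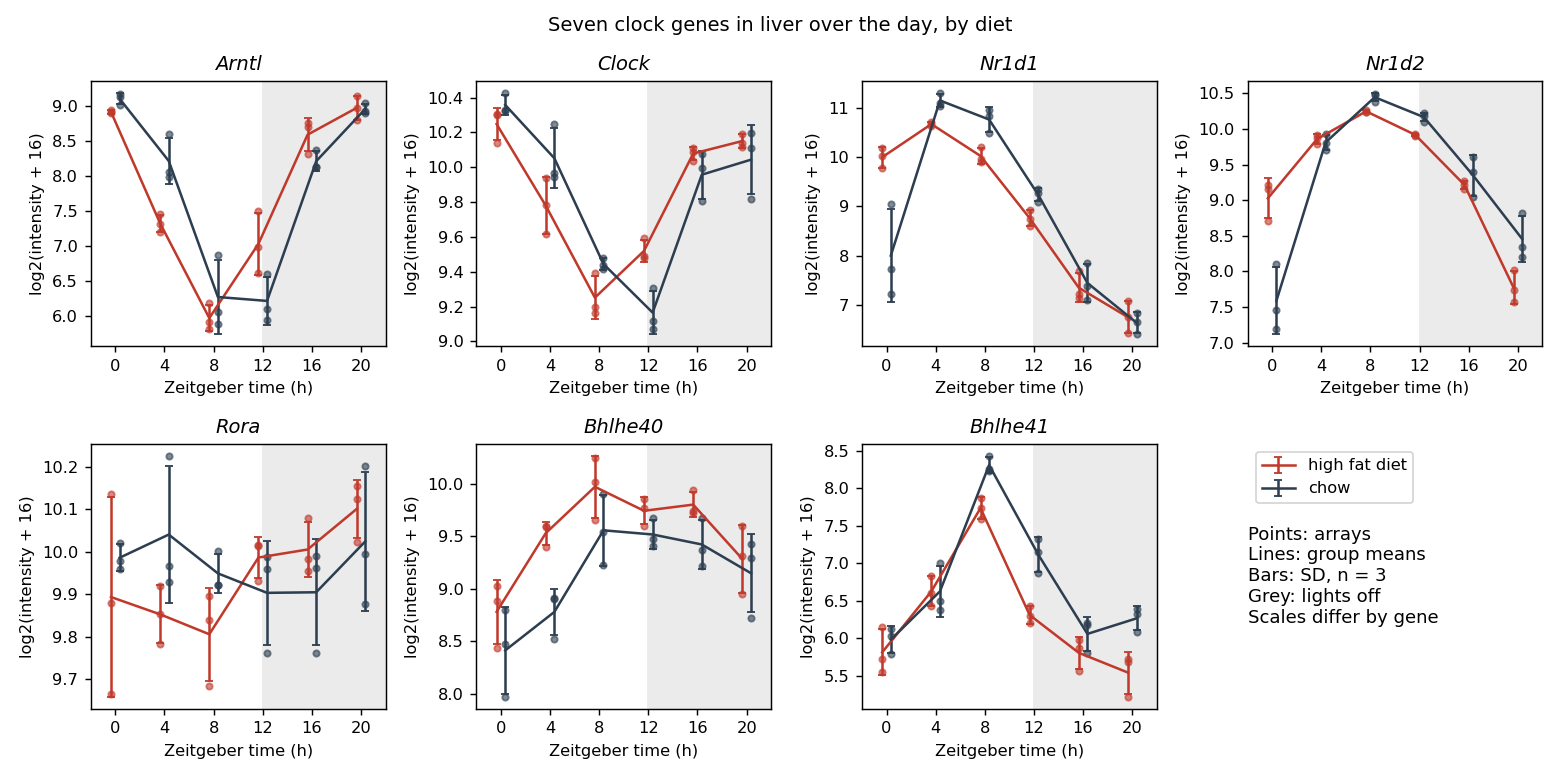
Level of each gene, log2(intensity + 16), by Zeitgeber time in hours, for the high fat diet (red) and chow (dark blue); points are arrays, lines join group means, bars are the SD (n = 3) and grey marks lights off. *Arntl* and *Clock* are low around ZT8 to ZT12, *Nr1d1* is high at ZT4, and *Rora* stays between 9.67 and 10.23 on all arrays.

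*Arntl* was lower on the high fat diet at ZT4 and higher at ZT12, and its average difference over the day was not called (-0.03 ± 0.08, SE, limma adjusted p = 0.855). At ZT4 it had 7.21, 7.32 and 7.46 in high fat diet livers, against 8.60, 8.07 and 7.99 in chow livers. Every high fat diet array lay below every chow array. *Arntl* fell at ZT4 by 0.89 ± 0.20 (SE) on the log2 scale, to 0.539 of the chow level (limma adjusted p = 0.00793). At ZT12 the order was turned round, with 7.51, 6.99 and 6.62 in high fat diet livers and 6.10, 5.96 and 6.61 in chow livers. It rose there 1.76-fold (0.815 ± 0.203 on the log2 scale, SE, limma adjusted p = 0.0137), although the lowest high fat diet array and the highest chow array were nearly level. These calls were lost when single arrays were left out: at ZT4 without high fat diet replicate 1 (adjusted p = 0.0522) or chow replicate 1 (0.0723), and at ZT12 without high fat diet replicate 1 (0.115) or chow replicate 1 or 2 (0.0583 and 0.111). Around the peak the diets lay close together. At ZT20 *Arntl* averaged 8.98 ± 0.17 on the high fat diet and 8.96 ± 0.07 on chow (SD, n = 3 each), and at ZT0 8.92 ± 0.03 on the high fat diet and 9.11 ± 0.08 on chow. The lowest group on the high fat diet was ZT8, at 5.98 ± 0.19, and on chow ZT12, at 6.22 ± 0.34, with chow at ZT8 nearly the same (6.28 ± 0.53). Between its lowest and highest group *Arntl* spanned 8.01-fold on the high fat diet and 7.40-fold on chow.

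*Clock*, the partner of BMAL1, followed the same course with a smaller swing. At ZT12 it had 9.59, 9.48 and 9.49 in high fat diet livers, against 9.12, 9.07 and 9.30 in chow livers, with no overlap. It rose there 1.28-fold (0.35 ± 0.10 on the log2 scale, SE, limma adjusted p = 0.0232). That call had little room: it was lost with each array median set equal (0.32, adjusted p = 0.0879) and without high fat diet replicate 1 or 3 (0.0877 and 0.0511) or chow replicate 1 or 2 (0.0846 and 0.140). At ZT4 the arrays had 9.62, 9.79 and 9.94 on the high fat diet, against 10.25, 9.94 and 9.97 on chow. That difference of -0.27 ± 0.10 (SE) did not pass after adjustment (limma adjusted p = 0.110), and it passed with array weights (-0.32, adjusted p = 0.0105). The span from lowest to highest group was 2.00-fold on the high fat diet (ZT8 to ZT0) and 2.29-fold on chow (ZT12 to ZT0).

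*Nr1d1*, the heme-binding repressor of *Arntl*, had the largest diet difference among the 7 genes, at lights on. At ZT0 it had 10.03, 9.77 and 10.19 in high fat diet livers, against 7.22, 7.74 and 9.04 in chow livers. The groups did not overlap, and the chow arrays were spread widely (7.998 ± 0.940, SD, n = 3), with replicate 3 far above the other two. *Nr1d1* rose there 3.99-fold (2.00 ± 0.26 on the log2 scale, SE, limma adjusted p = 1.44e-05), and the difference was 1.61 to 2.52 when each array was left out in turn. From ZT4 to ZT12 the high fat diet arrays lay below all chow arrays at each time, but no difference passed. At ZT4 it had 10.70, 10.67 and 10.62 on the high fat diet, against 11.10, 11.04 and 11.30 on chow (-0.48 ± 0.26, SE, limma adjusted p = 0.348). At ZT8 the values were 9.96, 10.21 and 9.89 on the high fat diet, against 10.83, 10.49 and 10.96 on chow (-0.74 ± 0.26, SE, limma adjusted p = 0.249). That ZT8 difference passed when the widely spread chow ZT0 group was fitted without replicate 3 (limma adjusted p = 0.0388). The high fat diet group mean was 3.25 log2 units higher at ZT0 than at ZT20, and the next step, to ZT4, was 0.67. On chow those steps were 1.36 and 3.15, so on chow the larger part of the climb lay between ZT0 and ZT4. *Nr1d1* was highest at ZT4 and lowest at ZT20 on both diets, 15.1-fold apart on the high fat diet and 22.8-fold apart on chow.

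*Nr1d2*, its close relative with the same DNA site, differed in the same direction at ZT0 and in the opposite direction at ZT20. At ZT0 it had 9.22, 8.70 and 9.16 in high fat diet livers, against 7.20, 7.46 and 8.11 in chow livers. As for *Nr1d1*, the groups were apart and chow replicate 3 was the highest of its group. *Nr1d2* rose 2.71-fold (1.44 ± 0.16 on the log2 scale, SE, limma adjusted p = 2.24e-06), with a difference of 1.24 to 1.70 when each array was left out in turn. At ZT20 it had 7.74, 8.02 and 7.56 on the high fat diet, against 8.34, 8.82 and 8.21 on chow. It fell there by 0.68 ± 0.16 (SE) on the log2 scale, to 0.623 of the chow level (limma adjusted p = 0.0179). That call was lost without chow replicate 2 (-0.50, adjusted p = 0.128) and without high fat diet replicate 1 or 3 (adjusted p = 0.0584 and 0.144). The lowest group was ZT20 on the high fat diet and ZT0 on chow, and the highest was ZT8 on both. The span was 5.55-fold on the high fat diet and 7.24-fold on chow.

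*Rora*, the activator at the REV-ERB element, varied little over the day. Over 18 arrays it ran from 9.67 through a median of 9.94 to 10.16 on the high fat diet, and from 9.76 through 9.96 to 10.23 on chow. No diet difference passed at any time, the largest being -0.19 ± 0.10 (SE) at ZT4 (limma adjusted p = 0.321). Its lowest and highest group differed 1.23-fold on the high fat diet, and on chow they differed less, with means of 9.90 and 10.04.

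*Bhlhe40*, a repressor that light and metabolic signals are known to induce, was higher on the high fat diet over the day. Over 18 arrays it ran from 8.44 through a median of 9.60 to 10.24 on the high fat diet, against 7.97 through 9.26 to 9.90 on chow. The group mean was higher on the high fat diet at each of the 6 times, while the arrays of the diets overlapped at ZT0, ZT8, ZT12 and ZT20. Averaged over the times it rose 1.30-fold (0.38 ± 0.08 on the log2 scale, SE, limma adjusted p = 0.000940). The difference was widest at ZT4, with 9.58, 9.40 and 9.60 in high fat diet livers and 8.90, 8.52 and 8.91 in chow livers. It rose there 1.68-fold (0.75 ± 0.20 on the log2 scale, SE, limma adjusted p = 0.0270), a call lost without chow replicate 2 (adjusted p = 0.163) or without high fat diet replicate 1 or 3 (adjusted p = 0.113 and 0.0970). At ZT16 the arrays were also apart, with 9.94, 9.72 and 9.74 on the high fat diet and 9.67, 9.22 and 9.37 on chow, but the difference did not pass (limma adjusted p = 0.424). It was highest at ZT8 and lowest at ZT0 on both diets, 2.28-fold apart on the high fat diet and 2.21-fold on chow.

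*Bhlhe41*, the other DEC repressor, was lower on the high fat diet on average over the day, though not at every time. Over 18 arrays it ran from 5.22 through a median of 6.18 to 7.88 on the high fat diet, against 5.79 through 6.38 to 8.43 on chow. Averaged over the times it fell by 0.42 ± 0.07 (SE) on the log2 scale, to 0.747 of the chow level (limma adjusted p = 3.02e-05). At ZT12 it had 6.20, 6.30 and 6.43 in high fat diet livers, against 7.15, 7.33 and 6.87 in chow livers. It fell there by 0.81 ± 0.17 (SE) on the log2 scale, to 0.572 of the chow level (limma adjusted p = 0.00332), with a difference of -0.93 to -0.70 when each array was left out in turn. At ZT20 it had 5.22, 5.69 and 5.72 on the high fat diet, against 6.39, 6.08 and 6.33 on chow. The groups were again apart, and it fell to 0.606 of the chow level (-0.72 ± 0.17, SE, limma adjusted p = 0.0148). That call was lost without high fat diet replicate 1 (-0.56, adjusted p = 0.112) and without chow replicate 1 or 3 (adjusted p = 0.0608 and 0.0883). At ZT8, the time of its peak, the arrays had 7.88, 7.59 and 7.74 on the high fat diet and 8.26, 8.23 and 8.43 on chow, apart without passing (limma adjusted p = 0.125). At ZT0, ZT4 and ZT16 the arrays of the diets overlapped, and no difference passed (-0.17, 0.0004 and -0.25, limma adjusted p = 0.574, 0.9996 and 0.578). The probe set is dim, and with a filter at the 50th percentile of brightness it was not tested. Averaged over the day, *Bhlhe40* and *Bhlhe41* thus differed in opposite directions. At ZT4, where the *Bhlhe40* difference was widest, *Bhlhe41* averaged 6.63 on both diets. Of markers tested, 7 of 8 macrophage, 3 of 6 stellate cell and 2 of 4 T and B cell markers were higher on the high fat diet, beside 11.3% of all genes. Of 7 hepatocyte markers 1 was higher and 2 were lower, and of 6 sinusoidal endothelial markers 0 were higher and 1 was lower. Of neutrophil, red blood cell and skeletal muscle markers 0 were higher, and of adipocyte and of exocrine pancreas and gut markers 1 each was. Summed stellate markers had a log2 intensity of 12.1 to 12.6 on the high fat diet and 11.9 to 12.5 on chow, and T and B cell markers 8.55 to 9.06 on the high fat diet and 8.32 to 8.99 on chow. The part of these cells in either result was not tested.

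**Figure D2:**
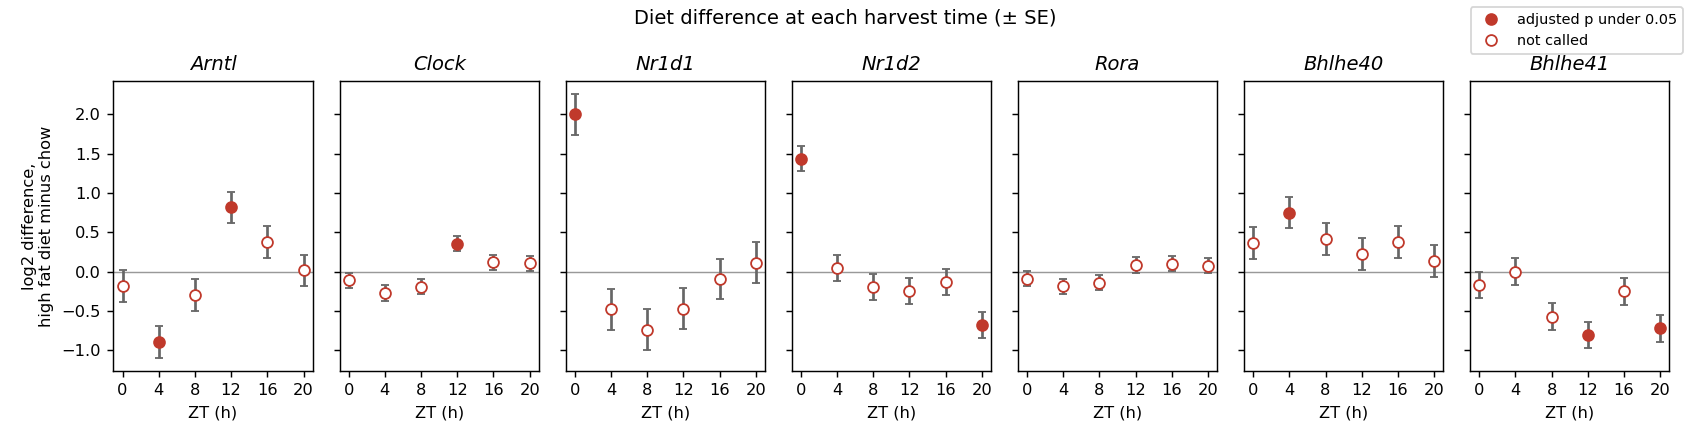
Log2 difference, high fat diet minus chow (± SE), for each gene (panels) and Zeitgeber time in hours; filled points have a limma adjusted p under 0.05 and open points do not. *Nr1d1* (2.00) and *Nr1d2* (1.44) stand out at ZT0, *Arntl* crosses from -0.89 at ZT4 to 0.815 at ZT12, and *Bhlhe40* lies above 0 at every time.

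Counted over the 7 genes, the average diet effect was called in 2 beside 21.3% of all genes tested, with 1 higher beside 11.3% and 1 lower beside 9.99%. That share is near the background and says nothing particular of these genes. The average differences of *Clock* (0.0014 ± 0.039), *Nr1d1* (0.05 ± 0.11), *Nr1d2* (0.04 ± 0.07) and *Rora* (-0.03 ± 0.04) were within about their standard errors (limma adjusted p = 0.985, 0.774, 0.754 and 0.687). At single times the calls were 2 of 7 at ZT0 beside 7.32% of all genes, 2 of 7 at ZT4 beside 3.98%, 3 of 7 at ZT12 beside 5.78% and 2 of 7 at ZT20 beside 2.2%. At ZT8 limma called 0 of 7 beside 0.853% of all genes. There 3 members had an unadjusted p under 0.05, a count with no share of all genes beside it. With array weights, 6 members were called at ZT8, beside 1760 of the 13956 genes tested. That fit leaned on 1 array of each diet. At ZT8 chow replicate 2 had a weight of 3.41, against 0.6421 and 0.7661 for replicates 1 and 3. High fat diet replicate 1 had 2.697, against 0.8099 and 0.5206 for replicates 2 and 3. For *Arntl* that chow array stood apart, at 6.88 against 5.89 and 6.07. Without weights, the *Arntl* difference at ZT8 ran from -0.496 to 0.000173 with 1 array left out. At ZT16 limma without weights called 0 of 7 beside 2.34%, with 0 at an unadjusted p under 0.05. The median difference of the 7 genes lay between -0.20 at ZT8 and 0.10 at ZT16, and that of all genes between 0.00 and 0.03. In a test of whether the diet effect varied over the 6 times, 3 of 7 passed beside 0.674% of all genes: *Nr1d2* (limma adjusted p = 5.12e-05), *Nr1d1* (0.000341) and *Arntl* (0.0124). *Clock* (0.0650), *Bhlhe41* (0.201), *Rora* (0.509) and *Bhlhe40* (0.702) did not pass it.

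Set in order, the 12 group means of a gene separated into few steps. Each group was set beside its neighbour in that order, and neighbours whose arrays overlapped were taken as not apart. *Nr1d1* and *Nr1d2* each had 5 gaps without overlap among 11, *Clock* 4, *Bhlhe41* 3 and *Arntl* 2, and *Rora* and *Bhlhe40* had 0. No share of all genes stands beside these counts, so they only describe each gene. A set below is a run of neighbours that each overlap the next, so groups within a set can still be apart, as the diets were for *Arntl* at ZT12. For *Arntl* the low set held both diets at ZT8 and ZT12 and the high fat diet at ZT4, and the high set held both diets at ZT0 and ZT20. Chow at ZT4 stood in the middle set with both diets at ZT16. For *Nr1d1* the top group was chow at ZT4 alone, followed by the high fat diet at ZT4 with chow at ZT8, and then by the high fat diet at ZT0 and ZT8. Chow at ZT0 stood further down, overlapping neighbours that led to both diets at ZT16. For *Nr1d2* chow at ZT8 was alone at the top and the high fat diet at ZT8 alone beneath it, while the lowest set was chow at ZT0 with the high fat diet at ZT20. *Clock* had chow at ZT0 alone at the top, and *Bhlhe41* had chow at ZT8, the high fat diet at ZT8 and chow at ZT12 each alone, in that order downward.

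A 24 h cosine wave was then fitted to each diet, giving an amplitude (mean to peak, log2) and a peak time. The wave was called in 6 of the 7 genes on both diets, beside 11.2% of all genes on the high fat diet, 20.9% on chow and 8.32% on both. *Nr1d1* had the widest wave of the 7, with an amplitude of 1.95 ± 0.16 on the high fat diet and 2.31 ± 0.16 on chow (SE, limma adjusted p = 3.43e-10 on the high fat diet and 3.53e-12 on chow). *Arntl* had 1.54 ± 0.11 on the high fat diet and 1.61 ± 0.11 on chow (SE, limma adjusted p = 1.94e-11 on the high fat diet and 3.34e-12 on chow). The fitted peak of *Nr1d1* lay in the hours of light, at ZT 5.17 on the high fat diet and 6.80 on chow. That of *Arntl* lay in the hours of darkness, at ZT 20.5 on the high fat diet and 22.1 on chow. *Nr1d2* had an amplitude of 1.08 ± 0.12 on the high fat diet and 1.32 ± 0.12 on chow (SE), peaking at ZT 8.25 on the high fat diet and ZT 9.84 on chow. *Bhlhe41* had 0.95 ± 0.13 on the high fat diet and 0.98 ± 0.13 on chow (SE), peaking at ZT 7.63 on the high fat diet and ZT 8.64 on chow. The smallest waves among the 6 were those of *Bhlhe40* and *Clock*. *Bhlhe40* had 0.50 ± 0.10 on the high fat diet and 0.55 ± 0.10 on chow (SE), peaking at ZT 11.1 on the high fat diet and ZT 12.5 on chow. *Clock* had 0.49 ± 0.06 on the high fat diet and 0.53 ± 0.06 on chow (SE), peaking at ZT 21.0 on the high fat diet and ZT 22.9 on chow. The wave of *Rora* did not pass on the high fat diet (0.13 ± 0.04, SE, limma adjusted p = 0.0606) or on chow (0.07 ± 0.04, SE, limma adjusted p = 0.449). The high fat diet wave of *Rora* lay near the threshold and passed under some alternatives, among them without high fat diet ZT0 replicate 2 or 3 (adjusted p = 0.0336 and 0.0426), chow ZT4 replicate 2 (0.0425) or chow ZT20 replicate 2 (0.0449).

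**Figure D3:**
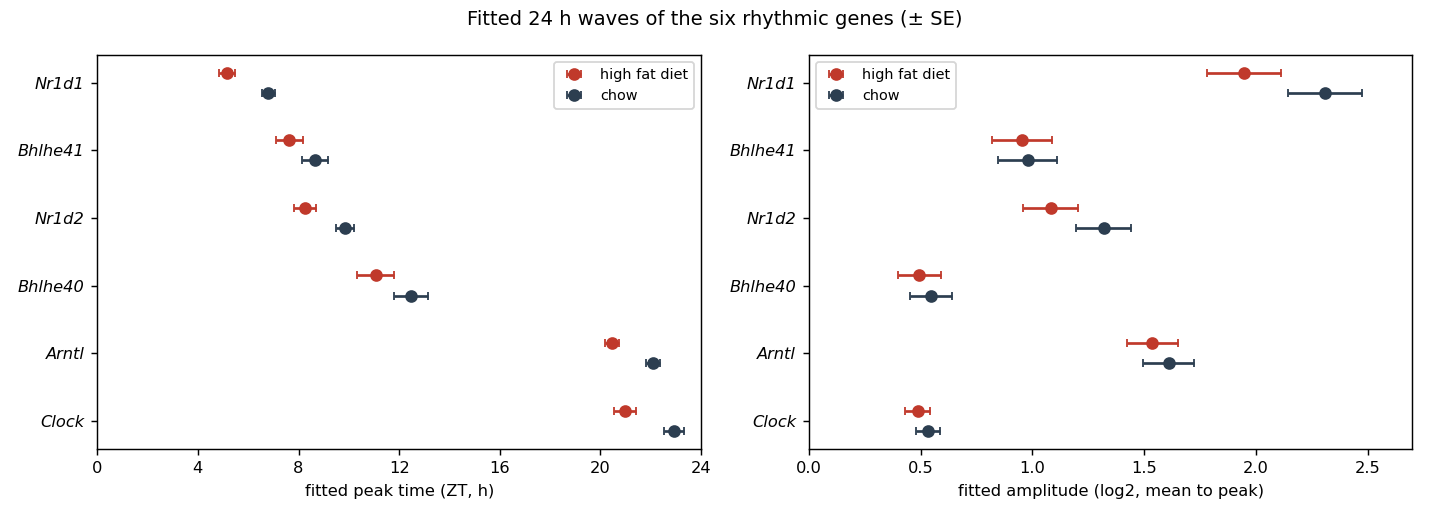
Fitted peak time (left, Zeitgeber hours) and amplitude (right, log2, mean to peak), each ± SE, of the 6 rhythmic genes on the high fat diet (red, upper) and chow (dark blue, lower). Each gene's fitted high fat diet peak is the earlier one, from 1.02 h for *Bhlhe41* to 1.96 h for *Clock*, and amplitudes lie close together except for wider gaps in *Nr1d1* and *Nr1d2*.

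The fitted peak was earlier on the high fat diet in all 6 rhythmic genes, beside 76.3% of the 1161 genes rhythmic on both diets. Group means were highest at the same harvest on both diets for *Clock* (ZT0), *Nr1d1* (ZT4), and *Nr1d2*, *Bhlhe40* and *Bhlhe41* (ZT8). For *Arntl* they were highest at ZT20 on the high fat diet and at ZT0 on chow. Harvests were 4 h apart, so the shifts below rest on the shape of the fitted wave. The shift was -1.96 ± 0.588 h for *Clock*, -1.64 ± 0.392 h for *Arntl* and -1.63 ± 0.422 h for *Nr1d1* (SE). *Nr1d2* had -1.58 ± 0.562 h, *Bhlhe40* -1.41 ± 0.989 h and *Bhlhe41* -1.02 ± 0.748 h (SE), so the DEC genes' shifts were little more than their standard errors. The median shift of the 1161 genes was -1.03 h, and the range between their 25th and 75th percentiles, -1.94 to -0.0735 h, held all of these shifts but that of *Clock*. Tested as a difference of the whole wave, 0 of 7 passed in limma, beside 0.0358% of all genes. An unadjusted p under 0.05 was seen in 5 of 7, among them *Rora*, whose wave was called on neither diet, and in neither DEC gene. No share of all genes stands beside that count, so it says nothing particular of these genes. The lowest adjusted p was 0.221, for *Arntl* and *Nr1d1*. When the 12 h harmonic was added to the wave, *Nr1d1* (adjusted p = 0.00447), *Arntl* and *Nr1d2* (both 0.0108) passed, beside 36 of the 13956 genes tested. With array weights *Arntl* did (0.0232), beside 200 of the 13956. Amplitudes on the high fat diet were lower by value in all 6 genes, beside 59.9% of the 1161, and the differences ran from -0.36 ± 0.23 for *Nr1d1* and -0.24 ± 0.17 for *Nr1d2* to -0.02 ± 0.19 for *Bhlhe41* (SE).

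The shifts of the REV-ERB genes rested on 1 time. Without ZT0 that of *Nr1d1* was -0.344 h and that of *Nr1d2* -0.252 h, and without any other time they lay between -2.41 and -1.23 h. *Clock* (-2.43 to -1.62 h) and *Arntl* (-2.01 to -1.28 h) kept shifts of over 1 h whichever time was left out. *Bhlhe40* (-2.34 to -0.610 h) and *Bhlhe41* (-1.99 to -0.525 h) kept their direction, and their values were smallest without ZT4. Without ZT20 the test of the whole wave passed for *Nr1d1* (limma adjusted p = 0.0128) and *Nr1d2* (0.0246), beside 66 of the 13956 genes tested.

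**Figure D4:**
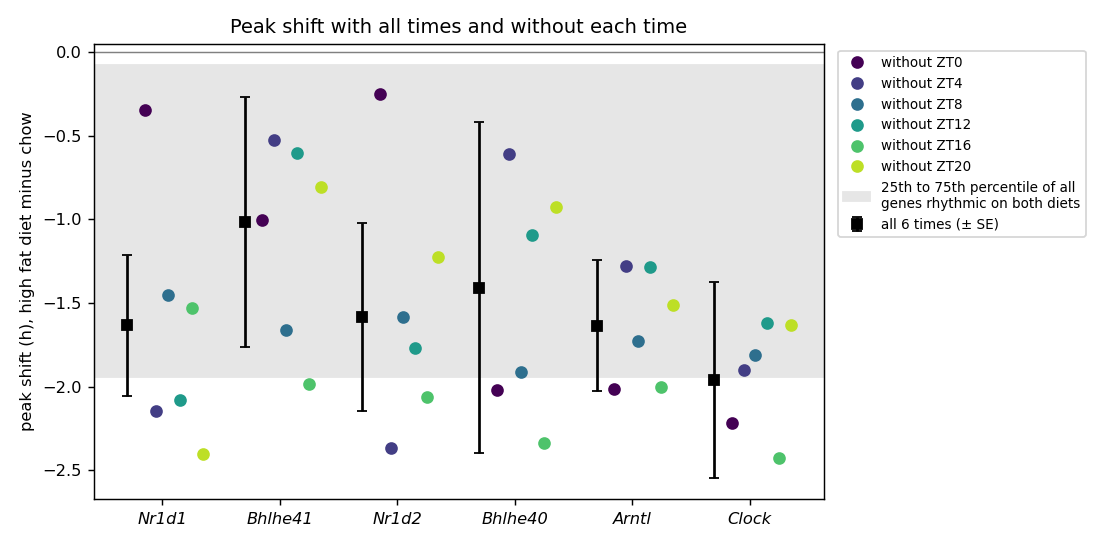
Fitted peak shift in hours, high fat diet minus chow, for the 6 rhythmic genes with all 6 times (black, ± SE) and without each time (coloured points); grey spans the 25th to 75th percentile of the 1161 genes rhythmic on both diets. The points without ZT0 of *Nr1d1* (-0.344 h) and *Nr1d2* (-0.252 h) lie apart from the rest of their gene.

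Over the 12 group means, which share arrays within each mean, *Arntl* and *Clock* ran together (Pearson r = 0.971) and opposite to *Nr1d2* (-0.861 and -0.808). *Arntl* was less opposed to *Nr1d1* (-0.567), whose peak comes earlier in the day, and the REV-ERB genes correlated with each other at 0.704. The DEC genes ran together only weakly (0.411). *Bhlhe41* stood closer to *Nr1d2* (0.752), and *Bhlhe40* had a correlation of 0.0155 with *Nr1d1*. Of all genes tested, the profile most like that of *Arntl* was *Chka* (0.985), which encodes a choline kinase, and the most opposite was *Pcsk4* (-0.961). For *Clock* these were *Caprin1* (0.982) and *Ciart* (-0.953), which encodes a circadian repressor. For *Nr1d1* they were *Pvr* (0.967) and *Cry1* (-0.978), a cryptochrome gene with known REV-ERB elements. The gene most like *Nr1d2* was *Dbp* (0.959), an E-box target that encodes a D-box activator, and the most opposite was *Dnmt3b* (-0.951). *Bhlhe40* was nearest to *Nr1i3* (0.954), which encodes the nuclear receptor CAR, and most opposite to *Ndrg1* (-0.943). For *Bhlhe41* these were *Hook2* (0.953) and *Slc45a3* (-0.963). *Rora* had weaker ones, *Mplkip* (0.816) and *Prex1* (-0.862).

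Of 31 other clock genes listed, 26 were tested, and 17 of these had a called wave on both diets, beside 8.32% of all genes. All 17 had an earlier fitted peak on the high fat diet, beside 76.3% of all genes rhythmic on both, with a median shift of -1.53 h. The lists were chosen with earlier results of these data known, so their counts are descriptions and not independent support. In the period and cryptochrome arm, 7 of 10 genes tested were rhythmic on both diets, with a median shift of -1.62 h. Among these, *Per2*, a repressor of BMAL1 and CLOCK, shifted by -2.79 ± 0.457 h (SE, limma adjusted p of the whole wave = 0.0136), and *Per1* by -0.230 ± 0.659 h. All 4 tested genes with known REV-ERB and ROR elements were rhythmic, with a median shift of -2.14 h, and *Cry1* counts both there and in the period and cryptochrome arm. Among them, *Elovl3*, which encodes a fatty acid elongase, shifted by -3.24 ± 0.480 h (SE, limma adjusted p = 0.00475). All 7 tested D-box factors and E-box outputs were rhythmic, with a median of -1.29 h. Of 6 tested paralogs, partners and cofactors of the 7 genes, 0 were rhythmic on the high fat diet and 1 on chow in limma. Averaged over the day, 5 of the 26 were higher on the high fat diet, beside 11.3% of all genes, and 1 was lower, beside 9.99%. Among the higher was *Insig2*, a brake on sterol synthesis (0.75 ± 0.06 on the log2 scale, SE, limma adjusted p = 9.80e-12).

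**Figure D5:**
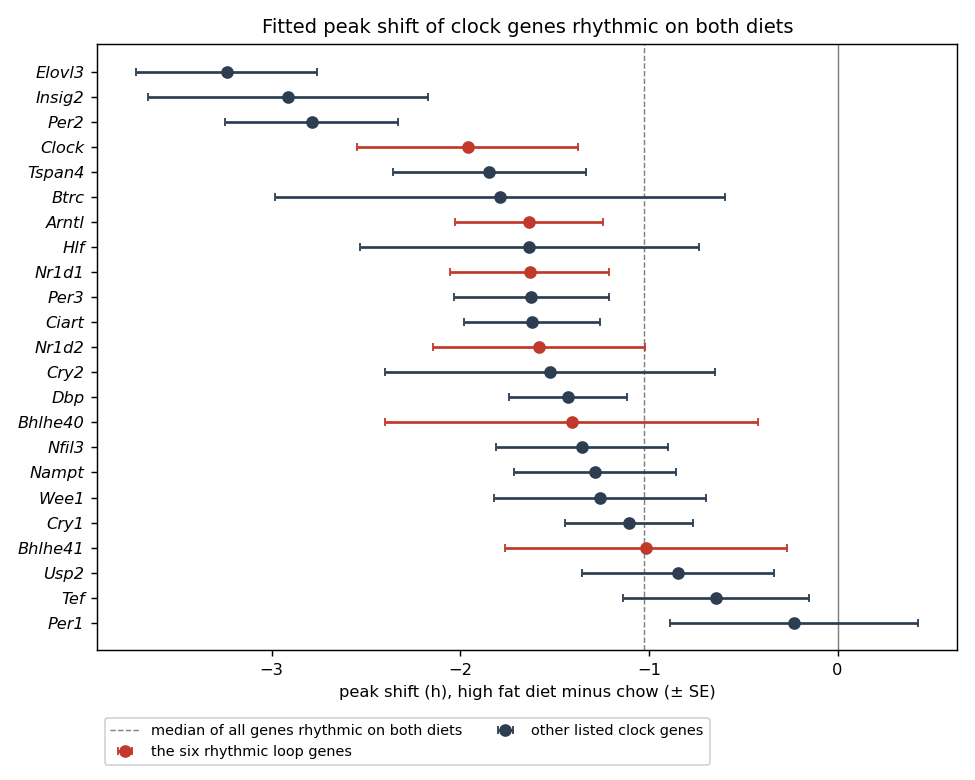
Fitted peak shift in hours, high fat diet minus chow (± SE), of the 6 rhythmic genes described here (red) and the 17 other clock genes rhythmic on both diets (dark blue); the dashed line is the median of all 1161 genes rhythmic on both diets, -1.03 h. The points all lie below 0, from *Elovl3* at -3.24 h to *Per1* at -0.230 h.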

How the data were processed

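Total liver RNA was hybridised to 36 Affymetrix whole-transcript arrays. The deposited values are linear probe set intensities made with Affymetrix Expression Console 1.1.1 and PLIER 2.0, per the submitters' processing notes. No source used here states their background correction or normalization, and the number of arrays limits the precision. Of 35556 probe sets, 21789 are assigned to 1 gene, 1621 to several and 12146 are unlisted in the annotation used. The brightest probe set stood for each of 19938 genes. Values were taken as log2(intensity + 16) with no further scaling, and genes above the 30th percentile of mean log2 value, 6.11, were tested.

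Fits used limma 3.58.1 in R 4.3.3 over all 13956 genes: 12 group means (24 residual degrees of freedom), and a 24 h cosine wave per diet (30 residual degrees of freedom), with trended empirical Bayes variances and Benjamini-Hochberg adjustment over all of them. Standard errors of amplitude, peak and shift are delta-method values and carry no test of their own. All 7 members are named, with the 3 genes most like and the 2 most opposite to each by Pearson r over group means; the text gives the first of each. Members and gene lists were chosen with earlier results of these data known. Listed genes that were not tested are not reported here. Alternatives were other offsets, filters, scalings, thresholds and wave models, array weights, a replicate block and leaving out each array or time.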

Additional observations from a re-analysis of the deposited data

Results flagged for a closer look

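The diet effect on *Nr1d2*, *Nr1d1* and *Arntl* differed between harvest times in limma's test of the diet by time term (adjusted p = 5.12e-05, 0.000341 and 0.0124). For *Nr1d2* the difference, high fat diet minus chow, was 1.44 at ZT0 and -0.68 at ZT20. For *Nr1d1* it was 2.00 at ZT0, the only time called for this gene, and -0.74 at ZT8, which was not called (limma adjusted p = 0.249). For *Arntl* it was -0.89 at ZT4 and 0.815 at ZT12.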

How the results depend on the processing

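Calls of the wave in the 6 rhythmic genes, the average effects of *Bhlhe40* and *Bhlhe41*, the ZT0 rises of *Nr1d1* and *Nr1d2* and the ZT12 fall of *Bhlhe41* held with each of the 36 arrays left out. The ZT4, ZT20 and other ZT12 calls did not. The cause of each change below was not tested. Leaving out 1 array, genes called ran from 305 to 1175 at ZT0, 275 to 652 at ZT4, 55 to 148 at ZT8, 311 to 886 at ZT12, 106 to 379 at ZT16, 139 to 365 at ZT20 and 4 to 15 for the difference in wave. Members called ran from 0 to 2 at ZT4, 0 to 1 at ZT8, 1 to 3 at ZT12 and 0 to 2 at ZT20. With a threshold of 0.01, genes called were 1840 on average, 224, 241, 55, 310, 122 and 122 from ZT0 to ZT20, 880 and 1739 for the wave on the high fat diet and chow, and 2 for the difference; members were 1 at ZT4, 1 at ZT12 and 0 at ZT20. With array weights, genes were 1119 at ZT4, 1760 at ZT8, 1246 at ZT12, 1376 at ZT16, 851 at ZT20, 2802 for the high fat diet wave and 200 for the difference, and members 6 at ZT8 and 1 for the difference. The filter at the 50th percentile left 1 member on average, 1 at ZT20 and 10 genes for the difference, and an offset of 64 gave 1 member at ZT8. An F test on group means called 2440 genes on the high fat diet and 94 genes and 3 members for the difference, and the 12 h harmonic 36 genes and 3 members. Quantile scaling gave 14 genes for the difference, leaving out ZT4 or ZT8 11 each, and leaving out ZT20 66 genes and 2 members. *Rora* gained a called wave on the high fat diet with quantile scaling (adjusted p = 0.0422), the stricter filter (0.0469) and array weights (0.00437), and without each of 4 single arrays (0.0336 to 0.0449). Signs turned only for differences that were not called: *Clock* on average to -0.0310 with equal medians and -0.0296 with weights, *Bhlhe41* at ZT4 to -0.0326 with quantile scaling, -0.0393 with equal medians and -0.00341 with an offset of 64, *Nr1d1* at ZT16 to 0.147 with weights, *Arntl* at ZT20 to -0.0419 with quantile scaling and -0.0169 with weights, and *Rora* at ZT20 to -0.0107 with weights. Leaving out 1 array, average differences that turned ran from -0.0677 to 0.0216 for *Arntl*, -0.0172 to 0.0178 for *Clock* and -0.0116 to 0.141 for *Nr1d1*. At single times they ran from -0.213 to 0.0211 for *Rora* at ZT0, -0.00640 to 0.104 for *Nr1d2* and -0.125 to 0.193 for *Bhlhe41* at ZT4, -0.496 to 0.000173 for *Arntl* at ZT8, -0.269 to 0.106 for *Nr1d1* at ZT16, and at ZT20 -0.0731 to 0.0991 for *Arntl*, -0.00432 to 0.184 for *Clock*, -0.0486 to 0.276 for *Nr1d1* and -0.0762 to 0.303 for *Bhlhe40*.

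Whether the labels' replicate numbers pair the samples was not settled. Deviations of 18 same-numbered pairs correlated from -0.412 to 0.35 with a median of 0.0206, and 5 of them were above 0.1. Between arrays of different groups the mean correlation was 0.0124 for the same number and -0.00642 for different numbers. Of 36 arrays, 17 correlated best with their own number among the 3. With the number as a replicate block, 3001 genes and 2 members were called on average, against 2969 and 2 without it, and no member's call changed.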

Other observations

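By fitted amplitude, *Nr1d1* ranked 3 on the high fat diet and 2 on chow among all 13956 genes tested, *Arntl* 5 on the high fat diet and 8 on chow, *Nr1d2* 12 on the high fat diet and 10 on chow, and *Bhlhe41* 26 on both. *Clock* ranked 165 on the high fat diet and 161 on chow, *Bhlhe40* 155 on the high fat diet and 152 on chow, and *Rora* 3098 on the high fat diet and 9580 on chow. Amplitudes are on the log2(intensity + 16) scale, which understates those of dim genes such as *Bhlhe41*.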
